A study of Mus musculus with 8 samples.

Results

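The genes described here mark the resident macrophages of the spleen: Spic, Adgre1, Vcam1, Cd163, Treml4, Mrc1, Cd68, Siglec1, Marco and Cd5l, 10 genes of 18193 named by the array's annotation. Every probe set that the platform annotation gives to one of these symbols alone was taken, 16 of 45037 probe sets on the array, with at least 1 for each gene. Levels are log2 values of the deposited intensities. The test took in probe sets that reached a log2 intensity of 5 on 4 or more of the 8 arrays, whatever their genotype. This held for 13 of the 16, covering 9 of the 10 genes, and not for the 3 probe sets of Siglec1.

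RNA of whole spleens was hybridised to Affymetrix mouse arrays, with 1 spleen on each array. The Nix_KO group held 4 Nix null animals (Nix-/-), untreated and 8 weeks old. The WT group held 4 wild-type animals, untreated and of the same age. Strain, sex and the deleted part of the gene are not given in the sources used here. Nix, the product of Bnip3l, is a mitochondrial outer membrane protein known for its role in removing mitochondria from maturing red cells. Arrays carry the number in their titles, and values below run in the order Nix_KO 2, 3, 6 and 10, then WT 3, 4, 5 and 6. Since whole spleen was measured, fewer cells of a type and less RNA in each cell cannot be told apart.

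Red pulp macrophages engulf aged red cells, break down their haem and return the iron to the blood. Their formation depends on the transcription factor SPIC, which haem itself induces by removing the repressor BACH1. Marginal zone macrophages line the border between red and white pulp, carry the scavenger receptor MARCO and trap particles from the blood, and an inner ring of metallophilic macrophages is known by SIGLEC1. In a mouse spleen that makes many red cells, these cells share the red pulp with erythroid precursors.

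The 3 probe sets that detect Bnip3l also carry the name of its pseudogene in the annotation, and the extent of the deletion is not known here, so they do not check the genotype labels. They read between 9.52 and 13.16 in Nix_KO arrays and between 9.38 and 12.57 in WT arrays. Their changes were 0.43, -0.50 and 0.58, and none passed the test (limma adjusted p = 0.158, 0.164 and 0.117). Between arrays, 48.6% to 49.3% of probe sets reached a log2 intensity of 5. The mean log2 intensity of 11 pancreas markers was 13.02 in Nix_KO 3, against 12.02 in WT 3 and 9.96 in WT 5, while the other arrays lay between 5.26 and 7.42. These 3 arrays therefore stand apart, and counts are also given without them. The median change over all 22347 probe sets tested was -0.12, and 0.00 once each array was centred on its median.

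None of the 13 tested macrophage probe sets passed the test for a difference between Nix_KO and WT spleens (limma, Benjamini-Hochberg adjusted p under 0.05 over all probe sets). Of all probe sets tested 30% passed: 12.5% were higher and 17.6% lower in Nix_KO. Without moderation of the variances and with quantile normalization the count of members was also 0, and 2 of the 13 had an unadjusted limma p under 0.05. The median change of the 13 was -0.41, beside -0.12 over all probe sets, and 9 of the 13 lay below 0 (69.2%, beside 58.7% of all). For 1 of the 13 every Nix_KO array lay below every WT array, which held for 19.5% of all probe sets tested. Without the arrays Nix_KO 3, WT 3 and WT 5, 0 of the 12 members then tested passed, beside 3.34% of all probe sets.

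The Nix_KO spleens differed among themselves. The SD of the Nix_KO arrays exceeded that of the WT arrays for all 13 probe sets, beside 74.3% of all probe sets tested, with a median SD of 0.62 in Nix_KO and 0.33 in WT (0.34 and 0.21 over all). Nix_KO 6 was the highest Nix_KO array for 11 of the 13 probe sets, beside 34.1% of all, and the highest of all 8 arrays for 8, beside 17.8% of all. Its median deviation from the WT mean over the 13 was 0.43, against -0.48 in Nix_KO 2, -0.38 in Nix_KO 3 and -0.63 in Nix_KO 10. Among WT arrays, WT 5 was the lowest for 10 of the 13, beside 31.4% of all, with a median deviation of -0.39.

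**Figure D1:**
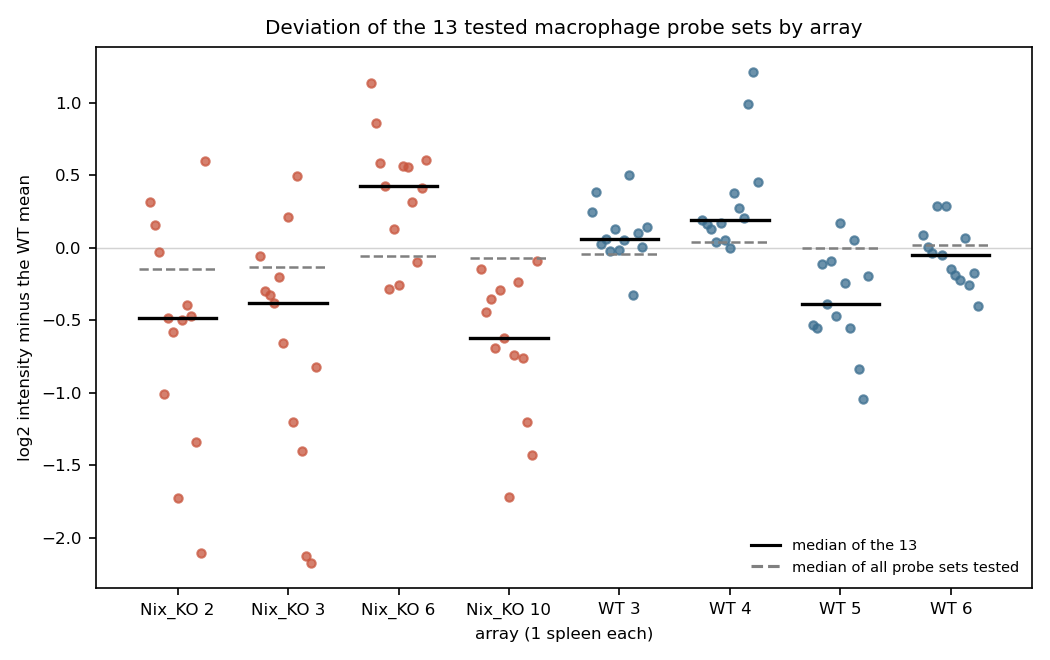
Deviation of each of the 13 tested macrophage probe sets (points) from its WT mean, on the log2 scale, in each of the 8 arrays, Nix_KO arrays at the left. The black line is the median of the 13 and the dashed line the median of all 22347 probe sets tested; Nix_KO 6 lies at 0.43, above the other 3 Nix_KO arrays.

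The number of members that passed changed with the spleens included and with the settings of the fit. Without Nix_KO 6, 6 of the 13 fell in Nix_KO, from the genes Marco, Vcam1, Cd68 and Treml4, where 18.5% of all probe sets fell. One of these calls, of Marco probe set 1458297_s_at, is set by the filter: its remaining Nix_KO arrays were all under a log2 intensity of 5, so it was tested through the WT arrays where it is high. Of the other 12, 5 fell (limma adjusted p from 0.0243 to 0.0442). Without Nix_KO 3, 1 fell (Cd163), where 13.8% of all did. Leaving out any other array gave 0. Array quality weights were lowest for Nix_KO 2 and Nix_KO 6 (0.29 and 0.38) and highest for WT 4 (4.18). WT 4 was the highest WT array for 7 of the 13 probe sets, beside 22.4% of all. With these weights 5 of the 13 fell, where 22.5% of all did. Apart from that Marco probe set, 4 of 12 fell. No label gives a reason to set Nix_KO 6 aside, and the 13 probe sets share the same arrays.

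**Figure D2:**
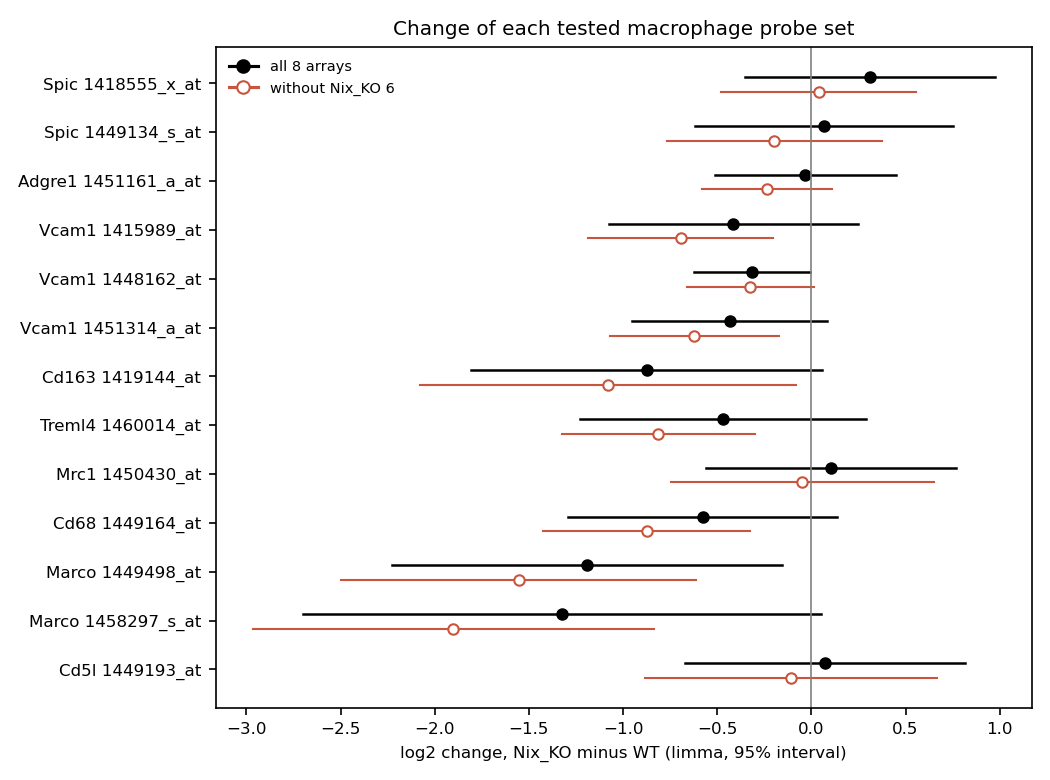
The log2 change of each tested macrophage probe set (Nix_KO minus WT) with its 95% interval from limma, over all 8 arrays (filled) and without Nix_KO 6 (open). The estimates of Marco lie furthest below 0, and those of Spic 1449134_s_at, Adgre1, Mrc1 and Cd5l lie between -0.03 and 0.10 over all arrays.

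Spic encodes the transcription factor on which red pulp macrophages depend. Its probe set 1449134_s_at read 9.66, 9.21, 10.37 and 9.06 in Nix_KO arrays, against 9.89, 9.67, 8.95 and 9.51 in WT arrays. The groups overlapped throughout, with the highest value in Nix_KO 6 and the lowest in WT 5. The log2 change was 0.07 ± 0.31 SE (95% interval -0.62 to 0.75, limma adjusted p = 0.887), which leaves room for changes from 0.652-fold to 1.68-fold. The other probe set, 1418555_x_at, whose suffix marks probes that may also bind other transcripts, read 9.28, 8.91, 10.10 and 8.82 in Nix_KO arrays and 9.21, 9.16, 8.44 and 9.06 in WT arrays. Its change was 0.31 ± 0.30 SE (limma adjusted p = 0.448). The changes of the 2 probe sets differed by 0.24, which did not pass after adjustment (exact permutation p = 0.0286, the smallest that 4 against 4 arrays can give, adjusted p = 0.143 over 5 pairs).

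Adgre1 encodes an adhesion G protein-coupled receptor by which mouse red pulp macrophages are usually identified. It read 9.24, 8.95, 9.86 and 8.92 in Nix_KO spleens, against 9.30, 9.40, 9.16 and 9.23 in WT spleens. The WT values lay close together (SD 0.10) and inside the range of the Nix_KO values (SD 0.44). The change was -0.03 ± 0.21 SE (95% interval -0.51 to 0.45, limma adjusted p = 0.925), and its sign turned under quantile normalization and under median centring. The change of Spic, by the probe set with the higher mean, minus that of Adgre1 was 0.10 (exact permutation p = 0.657, adjusted p = 0.657 over 2 pairs).

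Vcam1 encodes an adhesion molecule of red pulp macrophages that binds the integrin of ITGA4 and ITGB1 on blood cells, and endothelial and stromal cells carry it too. Its probe set 1448162_at read 12.90, 13.18, 13.10 and 13.09 in Nix_KO arrays, against 13.36, 13.55, 13.29 and 13.33 in WT arrays. Every Nix_KO array lay below every WT array here, by a small margin. The change was -0.31 ± 0.14 SE (1.24-fold lower in Nix_KO, limma adjusted p = 0.111). It passed where the fit let the variance follow intensity (limma adjusted p = 0.0446), where 17.6% of all probe sets fell. With each array centred on its median the change was -0.19 (limma adjusted p = 0.328). With quantile normalization it was -0.36 (limma adjusted p = 0.0772).

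The other 2 probe sets of Vcam1 gave similar estimates with wider errors. Probe set 1415989_at read 8.27, 8.90, 9.71 and 8.59 in Nix_KO arrays and 9.34, 9.33, 8.90 and 9.57 in WT arrays, a change of -0.41 ± 0.29 SE (limma adjusted p = 0.309). Probe set 1451314_a_at read 8.01, 7.93, 8.72 and 7.97 in Nix_KO arrays and 8.72, 8.65, 8.12 and 8.88 in WT arrays, a change of -0.43 ± 0.23 SE (limma adjusted p = 0.18). In both, Nix_KO 6 stood within or above the WT values while the other Nix_KO arrays lay lower, and without Nix_KO 6 both passed, at -0.69 and -0.62 (limma adjusted p = 0.0411 and 0.0442). Without Nix_KO 2 the change of 1415989_at was -0.22 (limma adjusted p = 0.595). Exact permutation tests of the differences between the changes of the 3 probe sets gave p from 0.686 to 0.971.

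Cd163 encodes the receptor that takes up haemoglobin bound to haptoglobin. It read 6.77, 8.70, 8.24 and 6.78 in Nix_KO spleens, against 8.48, 8.49, 8.66 and 8.35 in WT spleens. The Nix_KO arrays divided: Nix_KO 2 and Nix_KO 10 lay far below every WT array, while Nix_KO 3 was above every WT array and Nix_KO 6 just below. The SD was 0.9995 in Nix_KO and 0.13 in WT spleens. The change was -0.87 ± 0.42 SE (95% interval -1.81 to 0.06, 1.83-fold lower, limma adjusted p = 0.138). It passed without Nix_KO 3 (-1.24, limma adjusted p = 0.0354) and was -0.59 without Nix_KO 2.

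Treml4 encodes a receptor of the TREM family on splenic macrophages and dendritic cells that binds dying cells. It read 8.78, 8.08, 9.84 and 8.54 in Nix_KO spleens, against 9.33, 9.66, 9.03 and 9.09 in WT spleens. In 3 Nix_KO spleens it lay below every WT value, and in Nix_KO 6 above every one. The change was -0.47 ± 0.34 SE (limma adjusted p = 0.316), -0.81 without Nix_KO 6 (limma adjusted p = 0.0283) and -0.23 without Nix_KO 3 (limma adjusted p = 0.62).

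Cd68 encodes a glycoprotein of the lysosome and endosome membrane that macrophages of all kinds hold in large amounts. It read 9.56, 8.63, 10.34 and 9.27 in Nix_KO spleens, against 9.70, 10.23, 10.08 and 10.09 in WT spleens. The order of the Nix_KO arrays was that of Treml4, with 3 Nix_KO values below all WT values and Nix_KO 6 above them. The order of the WT arrays differed, with WT 3 the lowest for Cd68. The change was -0.58 ± 0.32 SE (1.49-fold lower, 95% interval -1.29 to 0.14, limma adjusted p = 0.194), -0.88 without Nix_KO 6 (limma adjusted p = 0.0277) and -0.30 without Nix_KO 3 (limma adjusted p = 0.416).

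Mrc1 encodes the macrophage mannose receptor, which sinusoidal endothelium also carries. It read 9.36, 10.25, 10.31 and 9.52 in Nix_KO spleens and 10.26, 10.03, 9.20 and 9.54 in WT spleens. Both groups covered nearly the same range, with an SD of 0.49 in Nix_KO and 0.48 in WT. The change was 0.10 ± 0.30 SE (95% interval -0.56 to 0.77, limma adjusted p = 0.815). Cd5l encodes a secreted scavenger protein, made by macrophages and once named for supporting their survival. It read 12.29, 10.87, 12.30 and 11.60 in Nix_KO spleens and 11.84, 12.15, 11.50 and 11.29 in WT spleens, with the lowest value in Nix_KO 3. The change was 0.07 ± 0.33 SE (95% interval -0.67 to 0.81, limma adjusted p = 0.889), and 0.37 without Nix_KO 3.

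Marco, the scavenger receptor of marginal zone macrophages, had the largest estimated change of the members. Its probe set 1449498_at read 7.89, 7.11, 9.13 and 8.03 in Nix_KO spleens, against 9.34, 10.22, 8.40 and 8.97 in WT spleens. Nix_KO 2, 3 and 10 lay below every WT value, and Nix_KO 6 lay among the WT values. The change was -1.19 ± 0.46 SE (2.28-fold lower, 95% interval -2.23 to -0.15, limma adjusted p = 0.0785). Without Nix_KO 6 it was -1.56 (2.94-fold lower, limma adjusted p = 0.0243), and without WT 4, the highest WT array, it was -0.86.

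The second probe set of Marco, 1458297_s_at, read 4.15, 4.08, 6.66 and 4.82 in Nix_KO spleens, against 6.26, 7.47, 5.21 and 6.08 in WT spleens. It entered the test through the WT arrays and Nix_KO 6, since 3 Nix_KO arrays were below a log2 intensity of 5. With those set to 5 the mean was at least 1.79-fold lower in Nix_KO, and the fitted change was -1.33 ± 0.61 SE (limma adjusted p = 0.128). Nix_KO 2, 3 and 10 again lay below every WT value. The change of Marco minus that of Adgre1 was -1.16 (exact permutation p = 0.0571, adjusted p = 0.114 over 2 pairs): on the same arrays Marco minus Adgre1 averaged -1.20 ± 0.50 in Nix_KO and -0.04 ± 0.66 in WT (SD, n = 4 each).

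Siglec1, the marker of marginal metallophilic macrophages, could not be followed. Its 3 probe sets read between 1.94 and 3.75 in Nix_KO spleens and between 1.87 and 4.18 in WT spleens, under the level required for testing in all 8 arrays. Cd68, held by macrophages of all kinds, does not single out either cell type. Marco was therefore the only tested member used here as a marker of marginal zone macrophages, and the metallophilic cells had none of their own. Cd209b, another receptor of marginal zone macrophages, read 6.19, 4.86, 6.80 and 4.67 in Nix_KO spleens, against 5.93, 8.43, 5.31 and 5.296 in WT spleens. Its change was -0.62 ± 0.73 SE (limma adjusted p = 0.544) and ran from -1.005 to 0.11 with an array left out, so its sign turned, with the highest value in WT 4, the array that was also highest for Marco.

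**Figure D3:**
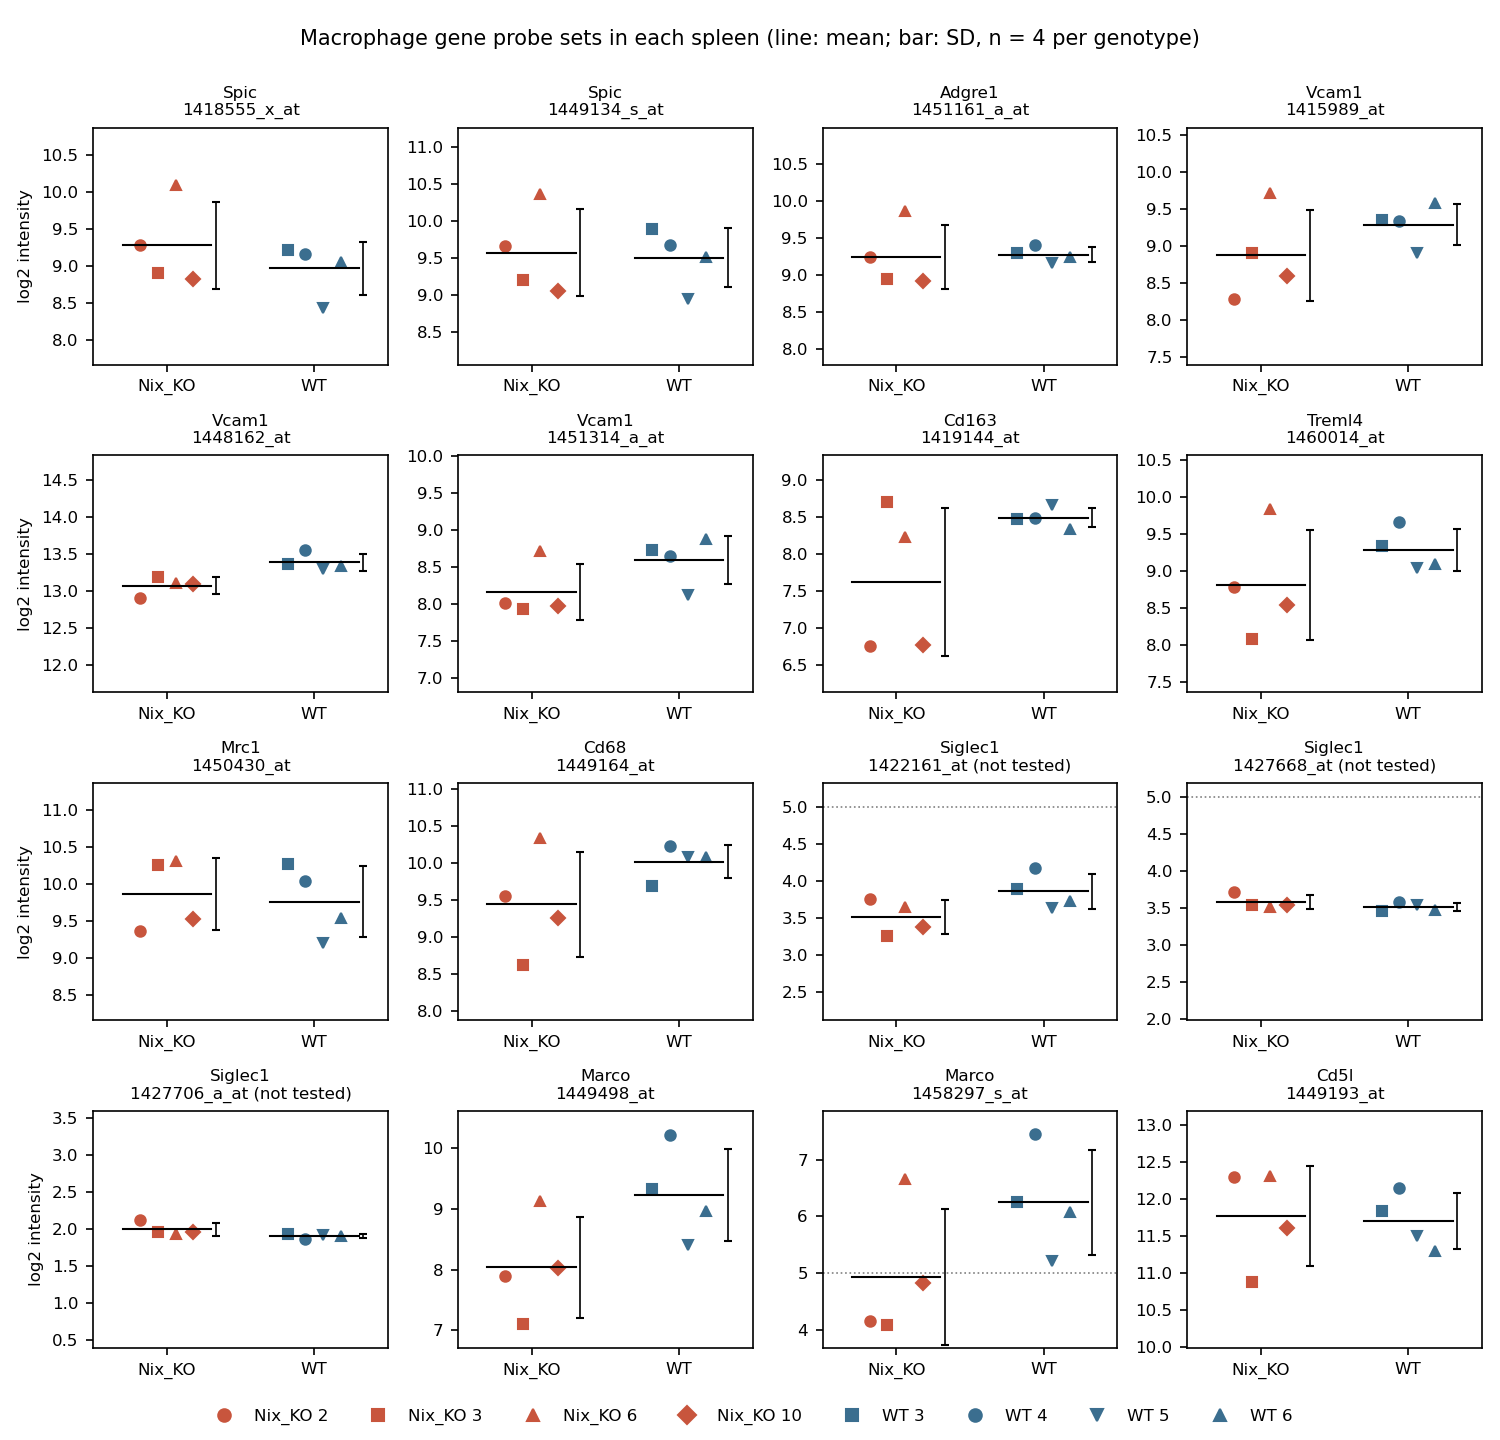
Log2 intensity of all 16 probe sets of the 10 macrophage genes in each spleen, with Nix_KO arrays left of WT arrays; lines are means and bars are SD (n = 4 per genotype), and each panel has its own range. The dotted line marks a log2 intensity of 5, which no Siglec1 probe set reached; Cd163 is split among Nix_KO spleens, near 6.8 in 2 of them and above 8.2 in the others.

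Most tested regulators of macrophages were lower in Nix_KO spleens. The list holds transcription factors, receptors and growth factors known in this lineage, several of which, such as Spib, Bach2 and Irf4, also act in B cells. Of 20 tested, 12 fell and 0 rose, with a median change of -0.85. Of all 11027 genes tested, each by its probe set with the highest mean, 21.3% fell and 13.1% rose. Bach2 was lower in 1 of its 3 tested probe sets, Zeb2 in 1 of 4 and Rxra in 1 of 2. The other genes that fell were lower in all of theirs. Runx1, which did not pass by its probe set with the highest mean, was lower in 1 of 5. Spi1 encodes PU.1, the master regulator of macrophages, which is also active in B cells. It read 8.89, 8.22, 9.20 and 8.87 in Nix_KO spleens, against 10.02, 10.05, 10.42 and 10.26 in WT spleens. The groups lay well apart, including Nix_KO 6, and Spi1 fell 2.63-fold (log2 -1.40 ± 0.22 SE, limma adjusted p = 0.00333).

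Spib, the B cell relative of Spi1 and Spic, fell by 2.73-fold, Cebpa, a myeloid transcription factor gene, by 2.21-fold and Id3, an inhibitor of helix-loop-helix factors, by 2.34-fold (limma adjusted p = 0.004, 0.00372 and 0.00408). Csf1r, the receptor on which most macrophages depend for survival, fell 1.83-fold by its brightest probe set, and all 3 of its probe sets passed. It read 11.68, 11.67, 12.38 and 11.96 in Nix_KO spleens and 12.90, 12.82, 12.80 and 12.64 in WT spleens. Bach1, the repressor that haem removes from the Spic gene, differed by 0.14 ± 0.17 SE (limma adjusted p = 0.577). Nr1h3, which encodes LXR alpha and is required for marginal zone macrophages in mice, differed by -0.82 ± 0.38 SE (limma adjusted p = 0.13); it read 8.07, 6.46, 8.23 and 7.21 in Nix_KO spleens and 7.78, 8.70, 8.45 and 8.30 in WT spleens.

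The promoters are shown because PU.1 and SPIC bind the same core, the PU box GAGGAA, and Spi1 and Spib fell while Spic did not pass; the difference between these genes was not tested. Of the 10 members, 7 had a promoter in the RefSeq table of build GRCm38.p6, from 250 bases before to 50 after the gene's start. The core was found on either strand in 5 of these 7, against 28.3% of all 32851 promoters of that table. It was found in Treml4, Mrc1, Cd68, Marco and Cd5l, and the letters do not occur in these windows of Spic and Cd163. The Maf or antioxidant element TGACNNNGC was found in 0 of the 7, against 12.4% of all. Capitals mark the core, written TTCCTC where it lies on the opposite strand. The promoters are those of Marco (chr1:120504975-120505274, minus strand, 1 match), Cd68 (chr11:69666121-69666420, minus strand, 2 matches), Treml4 (chr17:48264045-48264344, plus strand, 2 matches) and Mrc1 (chr2:14229164-14229463, plus strand, 3 matches).
Marco: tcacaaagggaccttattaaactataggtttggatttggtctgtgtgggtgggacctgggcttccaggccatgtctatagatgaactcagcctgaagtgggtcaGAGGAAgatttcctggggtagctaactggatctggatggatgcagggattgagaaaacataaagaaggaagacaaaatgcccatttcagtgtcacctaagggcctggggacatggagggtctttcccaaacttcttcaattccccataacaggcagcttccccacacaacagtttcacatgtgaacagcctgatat
Cd68: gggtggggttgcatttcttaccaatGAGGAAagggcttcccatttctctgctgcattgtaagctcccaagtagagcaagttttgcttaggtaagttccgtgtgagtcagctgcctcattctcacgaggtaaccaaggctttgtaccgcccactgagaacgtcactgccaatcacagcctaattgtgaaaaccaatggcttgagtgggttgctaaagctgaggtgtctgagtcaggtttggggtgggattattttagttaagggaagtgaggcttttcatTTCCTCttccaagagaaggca
Treml4: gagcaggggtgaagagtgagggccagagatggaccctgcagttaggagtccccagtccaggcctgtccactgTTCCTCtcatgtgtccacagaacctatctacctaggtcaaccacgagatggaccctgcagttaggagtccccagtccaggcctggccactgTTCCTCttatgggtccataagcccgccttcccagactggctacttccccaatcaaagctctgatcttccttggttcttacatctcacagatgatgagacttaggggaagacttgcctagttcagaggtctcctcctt
Mrc1: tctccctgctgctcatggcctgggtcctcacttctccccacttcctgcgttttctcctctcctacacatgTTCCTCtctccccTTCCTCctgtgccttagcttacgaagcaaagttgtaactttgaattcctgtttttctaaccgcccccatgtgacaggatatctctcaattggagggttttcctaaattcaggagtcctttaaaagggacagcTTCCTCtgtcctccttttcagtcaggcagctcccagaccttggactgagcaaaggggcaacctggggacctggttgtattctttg

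Whether these letters bear on the level of any member was not tested. A match describes the sequence and is not a measured binding site.

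The list of haem and iron handling genes, which also holds genes of other functions such as Gclm and Nqo1, included several that were higher in Nix_KO spleens. Erythroid cells use many of the listed genes too. Of 16 tested, 7 rose and 0 fell, with a median change of 0.71, where 13.1% of all genes tested rose and 21.3% fell. Gclm, of glutathione synthesis, rose 3.96-fold, Ncoa4, which carries ferritin to the lysosome, 2.5-fold, Nqo1, a quinone reductase, 4.68-fold and Slc11a2, the iron importer DMT1, 2.39-fold (limma adjusted p from 0.0025 to 0.00432). Also higher were Slc48a1 (2.03-fold), Blvrb (2.18-fold) and Steap3 (3.53-fold, limma adjusted p from 0.00776 to 0.0122). Hmox1 and Slc40a1, which act in the haem breakdown and iron return of red pulp macrophages, did not pass. Hmox1, which opens the haem ring, read 12.28, 11.45, 12.65 and 11.53 in Nix_KO spleens and 12.01, 11.73, 11.62 and 11.26 in WT spleens (change 0.32 ± 0.29 SE, limma adjusted p = 0.424). Slc40a1, the iron exporter ferroportin, read 12.41, 12.50, 12.95 and 12.32 in Nix_KO spleens and 12.76, 12.59, 12.01 and 12.07 in WT spleens (change 0.19 ± 0.22 SE, limma adjusted p = 0.541). Like Spic and Adgre1, both were highest in Nix_KO 6. Beside these values, all 8 tested erythroid markers rose, with a mean log2 intensity from 12.72 to 13.18 in Nix_KO arrays and from 10.03 to 11.88 in WT arrays; their part in the rises of this list was not tested.

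Of 28 other markers of macrophages and monocytes tested, 4 fell, 1 rose and 23 did not pass, with a median change of -0.41. Of all genes tested 34.4% passed in either direction, so most genes overall did not pass either. The inhibitory Fc receptor gene Fcgr2b, which B cells share, fell 2.03-fold (limma adjusted p = 0.00565). The integrin gene Itgax, which dendritic cells share, fell 2.41-fold (limma adjusted p = 0.00829). Csf1r is the third, and the fourth is Timd4, a receptor for dying cells (2.38-fold, limma adjusted p = 0.0356). The beta-glucan receptor gene Clec7a rose 1.68-fold (limma adjusted p = 0.0257), a call that was lost without Nix_KO 2, WT 3 or WT 5. Timd4 lost its call without Nix_KO 2, Nix_KO 3, WT 3, WT 4 or WT 6.

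Relatives of the members by gene family and binding partner moved in both directions. Of 34 tested, 14 fell and 3 rose, with a median change of -0.52, where 21.3% of all genes tested fell and 13.1% rose. Siglecg and Cd22, B cell members of the Siglec family of Siglec1, fell 2.85-fold and 2.43-fold, and Icam2, an endothelial and leukocyte adhesion molecule, fell 2.62-fold (limma adjusted p = 0.0025, 0.00284 and 0.00332). Of the partners of VCAM1, Itga4 read 10.65, 12.31, 10.91 and 11.85 in Nix_KO spleens, against 9.34, 9.11, 8.83 and 9.03 in WT spleens, by probe set 1456498_at. This probe set rose 5.11-fold (limma adjusted p = 0.00295), while the other 2 of the gene did not pass (changes 0.45 and 0.12). Itgb1 rose 1.49-fold by its brightest probe set (limma adjusted p = 0.0383), a call lost without Nix_KO 2, Nix_KO 6, WT 4 or WT 5, and its other 2 probe sets differed by -0.27 and 0.35 without passing. The third that rose was Trem3, an activating receptor of the family of Treml4 (2.33-fold, limma adjusted p = 0.0176), a call lost without WT 5 or WT 6.

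**Figure D4:**
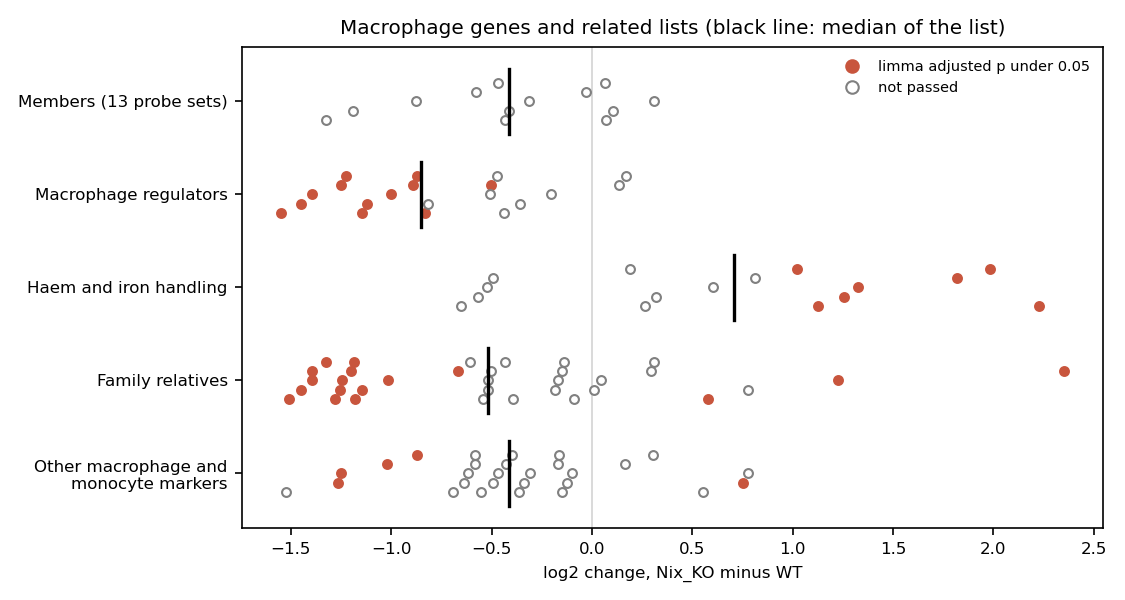
Log2 change (Nix_KO minus WT) of the 13 macrophage probe sets and of the tested genes of 4 related lists; filled points passed the test and black lines are medians. The members have no filled point, while 12 of 20 regulators are filled, all below 0.

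Markers of other spleen cells differed between the genotypes, where 21.3% of all genes tested fell and 13.1% rose. All 7 tested B cell markers fell, with mean log2 intensities from 9.65 to 10.52 in Nix_KO arrays and from 11.44 to 11.73 in WT arrays. Of 13 tested endothelial and stromal markers, which bear on Vcam1 and Mrc1, 11 fell and 0 rose, with means from 7.41 to 8.20 in Nix_KO arrays and from 8.84 to 9.01 in WT arrays, and Nix_KO 6 was the highest Nix_KO array here too. Of 6 tested dendritic cell markers, which bear on Treml4, 4 fell, with means from 6.82 to 7.49 in Nix_KO and from 7.78 to 8.20 in WT. Of 7 T cell markers 5 fell, with means from 8.65 to 9.68 in Nix_KO arrays and from 9.66 to 10.24 in WT arrays, which overlap. All 10 neutrophil markers rose, with means from 10.72 to 11.54 in Nix_KO and from 7.81 to 10.45 in WT. The part of these cells in the values of the members, of Spi1, Spib and Itgax was not tested. Without Nix_KO 3, WT 3 and WT 5, 3 genes of the 4 related lists rose and 3 fell, beside 11 and 27 over all arrays, and 5 arrays remain in that fit.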

How the data were processed

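Per the submitters' processing notes, the authors made the deposited intensity values with GCRMA, a method that subtracts background, scales arrays to each other and gives 1 value for each probe set. The deposited intensities are linear and were log2-transformed with no offset. Of 45101 probe sets, 64 controls were left out. Annotation gave 34945 probe sets 1 symbol, 932 several and 9160 none. Nix_KO and WT arrays (4 each) were compared with limma 3.58.1 in R 4.3.3 (lmFit and eBayes, two-sided), with Benjamini-Hochberg adjustment over the 22347 probe sets tested; errors of changes are standard errors. The fit was tested on simulated data with independent noise of the same variance in both genotypes. That check did not cover the larger SD of the Nix_KO arrays. Single differences used exact permutation over arrays; the planned one between Siglec1 and Adgre1 was not made, since Siglec1 was too dim. Figures were drawn with matplotlib 3.10.9. Related genes (112 in 4 lists that share some members, 95 tested) were named where among the 4 smallest adjusted p of a list. Bach1, Hmox1, Slc40a1, Nr1h3, Itgb1 and Cd209b were named whatever their result, as were Spi1, Csf1r and Itga4, which are among those 4 as well. Itgad was not analysed here. Slc48a1, Blvrb, Steap3, Timd4 and Trem3 were named after their values were seen. Among the regulators, Bach2, Zeb2, Rxra and Runx1 were named because their probe sets differed in call, and Irf4 as a gene also active in B cells. Members and lists were chosen with earlier results of these data known. GCRMA pulls weak probe sets to a common low level. The number of arrays limits the precision. The labels describe separate, unpooled RNA extracts of the animals.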

Additional observations from a re-analysis of the deposited data

Results flagged for a closer look

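Among 26 groups of 4 arrays (13 macrophage probe sets in each genotype), 1 held an array far from the others: for Vcam1 probe set 1451314_a_at, Nix_KO 6 read a log2 intensity of 8.72, with the next Nix_KO array at 8.01 and the other 2 below it. The gap made up 0.906 of the group's range, above Dixon's critical value for 4 values. Chance gives about 1 such group in 20.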

How the results depend on the processing

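The count of members called higher was 0 under every alternative run. The count called lower was 0 over all arrays, 5 with array weights, 1 with an intensity trend and from 0 to 6 with an array left out. Apart from the dim Marco probe set 1458297_s_at, 4 of 12 fell with array weights and 5 of 12 without Nix_KO 6. Over all probe sets, 2789 were higher and 3922 lower; these became 1130 and 1044 without moderation of the variances, 510 and 200 without Nix_KO 3, WT 3 and WT 5, and from 1890 to 2657 and from 2045 to 4217 with an array left out (2046 lower without WT 4, 2472 without WT 5 and 2045 without WT 6). Related genes, 11 higher and 27 lower, became 5 and 6 without moderation and 3 and 3 without the 3 arrays. Of calls over all probe sets 41.6% were higher, 52.4% with arrays centred and 45.6% with no filter.

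Signs turned for changes that did not pass, most of them small; Cd209b (-0.62, up to 0.11 with an array left out) and Cd163 (-0.87, under the replicate block) were not. Adgre1 (-0.03) became 0.0259 with quantile normalization, 0.0906 with centring and 0.022 without the 3 arrays, and ran from -0.24 to 0.0765 with an array left out. With array weights the 2 Spic probe sets gave -0.018 and -0.27, Mrc1 -0.0622 and Cd5l -0.27; without the 3 arrays Mrc1 gave -0.0508. With an array left out, Spic 1449134_s_at ran from -0.20 to 0.24, Mrc1 from -0.0822 to 0.27, Cd5l from -0.11 to 0.37 and Cd163 from -1.24 to -0.59. The cause of these turns was not tested.

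The numbers 3 and 6 occur in both genotypes. Deviations from the group means correlated at 0.25 between Nix_KO 3 and WT 3 and at 0.15 between Nix_KO 6 and WT 6. Pairs with different numbers ran from -0.49 (Nix_KO 10 and WT 3) to 0.38 (Nix_KO 10 and WT 6). No label ties the 2 pairs that share a number, so the numbers were not taken to pair the arrays. With the replicate number as a block, which leaves 1 residual degree of freedom, 0 probe sets were higher and 1 lower, 0 and 0 related genes, Adgre1 gave 0.14 and Cd163 0.0568.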
